A study of Mus musculus with 6 samples.

Results

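Carmn and 9 genes of the smooth muscle contractile programme (Myocd, Acta2, Actg2, Tagln, Myl9, Mylk, Myh11, Cnn1 and Lmod1) were picked by gene symbol from the expression table of 3T3-L1 cells, and all 10 were found among its 21436 genes. They were picked with their difference between the groups already known, so their own values are given as a description and without a test. 3T3-L1 is a wild-type preadipocyte line derived from mouse embryo fibroblasts. In the group called co-culture here, human umbilical cord mesenchymal stem cells grew on a Transwell membrane above the 3T3-L1 cells, and in the group called alone no stem cells were above them. Both groups were kept for 72 h in HG-DMEM with 10% FBS, insulin at 10 mg/L, IBMX at 0.5 mmol/L, dexamethasone at 1 µmol/L and rosiglitazone at 2 µmol/L, the cocktail that starts adipocyte differentiation. The membrane had pores of 0.4 µm. Total RNA was sequenced in 3 libraries per group, all from the same line in the same medium, and no library came from cells outside that medium. Whether each library stands for its own culture is not in the labels, and p-values therefore cover only the spread among these libraries, which may be technical.

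Smooth muscle cells contract when myosin light chain kinase phosphorylates the regulatory light chain of myosin, which then pulls on filaments of smooth muscle actin. The genes for these proteins share a regulatory system in which serum response factor binds a short promoter motif, the CArG box, together with a cofactor, either myocardin in muscle or one of the myocardin-related factors, which respond to the state of the actin cytoskeleton and are present in fibroblasts as well. Fibroblasts and preadipocytes with stress fibres make part of the same set, and Acta2 is widely used as a marker of activated fibroblasts. Carmn is a long non-coding RNA that is transcribed through the genes of the microRNAs miR-143 and miR-145 and is known for its high level in smooth muscle, where it works with myocardin.

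Values are FPKM, fragments scaled to gene length and to the library total. The FPKM values resolved to whole reads for all 21436 genes, and library totals were 29603755, 37612585 and 37325449 reads for co-culture replicates 1 to 3 and 37929978, 36119750 and 38357563 for alone replicates 1 to 3. Alone replicate 1 stood apart from its group, with a mean chi-square per gene of 9.33 and 11.9 against the other alone libraries, and the range was 3.44 to 4.79 for all remaining pairs within a group. The labelled cell type, embryonic fibroblast, was checked against preadipocyte fibroblast markers, of which 11 of 12 reached a mean of 1 FPKM. Their summed level was 3645 to 3718 FPKM in co-culture and 3425 to 3588 FPKM alone, led by S100a4 (909 FPKM in co-culture and 778 FPKM alone) and Col1a2 (823 FPKM in co-culture and 774 FPKM alone). The whole-table comparison covered the 10055 genes that averaged 1 FPKM or more over the 6 libraries, and a gene was called when its adjusted p was below 0.05 (limma with Benjamini-Hochberg adjustment). On that marker list 4 genes of 11 tested were called higher (36.4%) and 3 lower (27.3%), beside 13.9% and 17.9% of all tested genes. Named after their values were seen, they were Pdgfra, Dlk1, Ly6a and S100a4 on the higher side and Thy1, Col3a1 and Dcn on the lower, with log2 changes of −0.21, −0.16 and −0.30 for the lower ones. The call on Thy1 was lost without co-culture replicate 1 (adjusted p = 0.0531, limma), that on Ly6a without replicate 2 of either group (0.0520 to 0.0586) and that on S100a4 without alone replicate 2 or replicate 3 of either group or co-culture replicate 1 (0.0676 to 0.109). Their part in the differences of Carmn and the contractile genes was not tested.

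Carmn and 5 contractile genes were clearly expressed in both groups, and all 6 were higher in co-culture. The 6 genes above 1 FPKM were Acta2, Mylk, Carmn, Lmod1, Tagln and Myl9. Their log2 changes on the log2(FPKM + 1) scale, where changes of genes at low level look smaller than they are, ran between 0.38 for Lmod1 and 1.40 for Carmn. The median of these 6 was 0.59 (0.57 for the 5 without Carmn), where the median of all 10055 genes was −0.0037 and their 5th and 95th percentiles were −0.32 and 0.26. All 6 were called higher, which the choice of genes fixes. Among all tested genes 13.9% were called higher and 17.9% lower, and nothing is read from the count of the 6. The other 4, Actg2, Cnn1, Myh11 and Myocd, lay below 0.4 FPKM in every library and were not part of the test. In bulk RNA a change in the number of cells that make a transcript and a change in the transcript per cell cannot be told apart. Human cells were present above the co-culture cells only, how any reads from them would have been treated is not given in the sources used here, and their part in the differences was not tested.

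**Figure D1:**
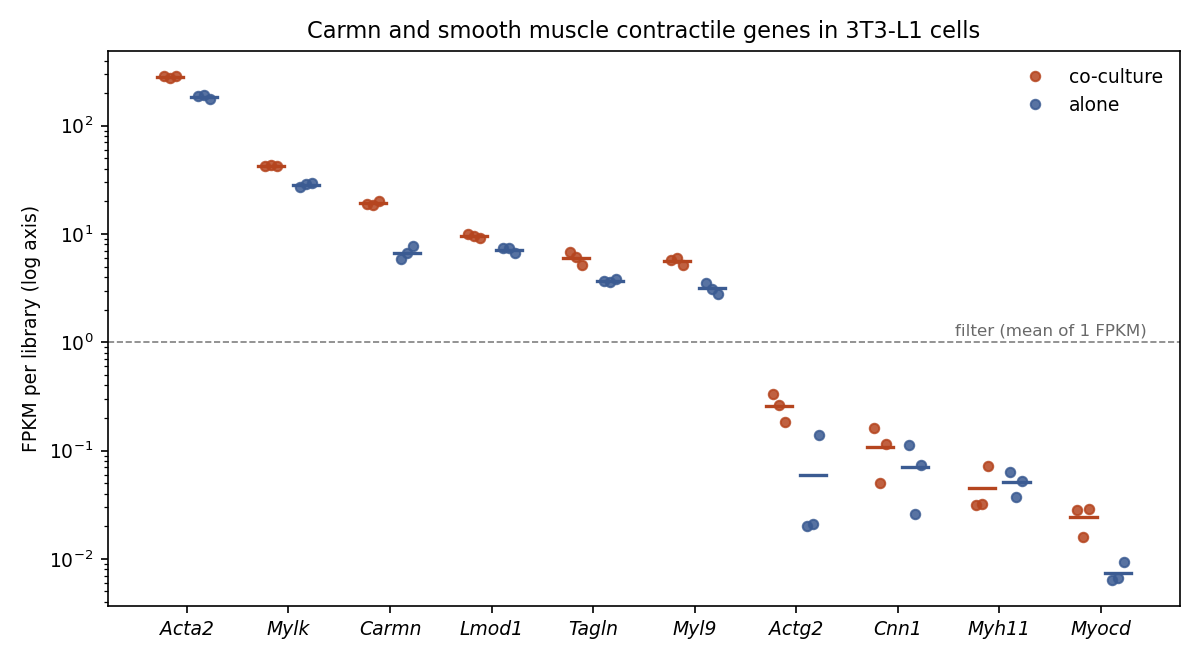
FPKM of each of the 10 genes in each library (points, log axis) with the group mean (line), co-culture left of alone, and the filter at a mean of 1 FPKM (dashed). Acta2, Mylk, Carmn, Lmod1, Tagln and Myl9 lie above the filter with no overlap between the groups, and below it the groups of Cnn1 and Myh11 overlap.

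Promoter sequence was available for 5 of the 10 genes, Acta2, Myl9, Mylk, Cnn1 and Lmod1. It came from RefSeq (GRCm38.p6), as 250 bases before and 50 bases after an annotated start, and was searched on both strands for the CArG box. The start coincided with the edge of the RefSeq gene span for Lmod1 and lay within that span for Acta2, Myl9, Mylk and Cnn1. Of the 250 bases before the start, the span held all 250 for Mylk, 212 for Acta2, 56 for Myl9 and 32 for Cnn1. The Mylk window is thus at an internal start (chr16:34784950, with the span from chr16:34745199), and the edge of its span was not searched. An exact CArG box was present in 535 of 32851 promoters of this length (1.63%). Among the 5 it was found in Myl9 alone. With 1 mismatch allowed among its outer C and G bases, 13.9% of promoters had a match, and Myl9 and Lmod1 were the 2 genes among the 5. With 1 mismatch allowed in its A/T core, a search added after the data were seen, 9.98% of promoters had a match, and Myl9 and Acta2 were the 2. Mylk and Cnn1 had none under any of the 3 searches, which says only that these letters are not in this window. Sequence is shown for the 3 promoters with a match, since the contractile genes are known to share the factor that binds this motif, although only Myl9 has an exact box and the mismatch matches of Acta2 and Lmod1 are of a kind found in 9.98% and 13.9% of promoters. It is read 5′ to 3′ on the strand of the gene, capitals mark the matches, and positions count backwards from −1, the base before the start. Myl9 (chr2:156775214-156775407, plus strand) has the exact box at −161 to −152 and a core mismatch at −99 to −90. Acta2 (minus strand) has core mismatches at −84 to −75 (chr19:34255438-34255467) and −34 to −25 (chr19:34255388-34255417), both within an annotated 5′ untranslated exon, and 30 bases around each are shown. Lmod1 (chr1:135324563-135324806, plus strand) has outer mismatches at −189 to −180 and −164 to −155. For Myl9 and Lmod1 the sequence ends where the annotated transcripts begin, after 194 and 244 bases.
Myl9: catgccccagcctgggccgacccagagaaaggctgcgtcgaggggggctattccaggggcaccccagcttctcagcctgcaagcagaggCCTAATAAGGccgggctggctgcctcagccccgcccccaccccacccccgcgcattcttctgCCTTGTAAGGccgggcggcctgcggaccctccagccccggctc
Acta2 (first match): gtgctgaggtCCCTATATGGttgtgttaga
Acta2 (second match): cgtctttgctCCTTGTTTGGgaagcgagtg
Lmod1: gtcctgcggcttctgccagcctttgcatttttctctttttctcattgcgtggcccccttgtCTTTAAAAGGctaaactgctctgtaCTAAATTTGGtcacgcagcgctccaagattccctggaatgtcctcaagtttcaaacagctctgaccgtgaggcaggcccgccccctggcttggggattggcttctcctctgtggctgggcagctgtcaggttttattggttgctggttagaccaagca

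On the log2(FPKM + 1) scale Carmn had the largest change of the 6 expressed genes. Carmn was at 19.1, 18.7 and 20 FPKM in co-culture and at 5.91, 6.63 and 7.67 FPKM alone. All 3 co-culture libraries lay close together and well above every alone library, and the alone libraries were spread more widely. Means were 19.3 ± 0.627 FPKM in co-culture and 6.73 ± 0.884 FPKM alone (SD, n = 3 each), a ratio of 2.86, and the log2 change was 1.40 (SE 0.072). These rest on 2734 reads in co-culture and 1028 reads alone. No other tested gene had a larger increase on this scale (rank 1 of 10055), and without alone replicate 1 the log2 change was 1.32. Carmn lies on the minus strand at chr18:61645878-61665538 (mm10), and its values were scaled to a length of 1357 bp.

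None of the tested neighbours of Carmn was called. RefSeq annotates 24 other genes within 250 kb on either side, of which 11 were measured here and 6 reached the filter. Of these 6, 0 were called in either direction, beside 31.8% of all tested genes. With only 6 genes nothing is read from this count. At an unadjusted p below 0.05, 1 was higher and 1 lower, and limma-voom called 1 higher and 0 lower. Bvht, a long non-coding RNA whose span overlaps that of Carmn by 1608 bp, was at 3.20, 2.21 and 3.48 FPKM in co-culture and at 2.81, 2.58 and 3.04 FPKM alone, so its groups overlapped (log2 change 0.05, SE 0.109, adjusted p = 0.781, limma). Gm35607, a non-coding gene 13.2 kb from Carmn, was at 1.71, 1.5 and 0.826 FPKM in co-culture and at 1.05, 0.366 and 0.766 FPKM alone. Its log2 change of 0.44 (SE 0.161) was not called (adjusted p = 0.0584, limma), but the adjusted p was 0.0300 or lower (0.0141 at the lowest) without alone replicate 1 or without co-culture replicate 3.

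The 4 further tested neighbours had log2 changes between −0.19 and −0.01, none of them called. The casein kinase gene Csnk1a1 averaged 65.8 FPKM in co-culture and 68.3 FPKM alone (log2 change −0.05). Grpel2, a co-chaperone gene of the mitochondrial matrix, averaged 3.15 ± 0.345 FPKM in co-culture and 3.72 ± 0.177 FPKM alone (SD, n = 3 each), with a log2 change of −0.19 (adjusted p = 0.0636, limma), and its groups did not overlap. For Pcyox1l and 1500015A07Rik the log2 changes were −0.12 and −0.01. Ppargc1b, Gm52354, Arhgef37, Afap1l1 and Ablim3 were below the filter. The microRNAs within the Carmn span were not analysed here.

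Myocd, which encodes myocardin, the muscle-specific cofactor of serum response factor, was close to the limit of detection. It was at 0.0284, 0.0159 and 0.0289 FPKM in co-culture and at 0.00632, 0.00664 and 0.00938 FPKM alone. That is 7, 5 and 9 reads in the co-culture libraries and 2, 2 and 3 reads in the alone libraries, and 3 reads, the limit that a count of 0 allows for counting error only, correspond to at most 0.0122 FPKM of this gene. The groups did not overlap. The sums of 21 reads in co-culture and 7 reads alone gave a ratio of 3.23 per library read. Myocd lies at chr11:65173608-65269989.

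The actins came next in the contractile machinery. Acta2, smooth muscle alpha-actin and the most abundant of the 10, was at 285, 277 and 288 FPKM in co-culture and at 188, 193 and 175 FPKM alone. Every co-culture library was more than 80 FPKM above every alone library. Group means were 283 ± 6.03 FPKM in co-culture and 186 ± 9.35 FPKM alone (SD, n = 3 each), a difference of 97.8 FPKM, and the log2 change was 0.61 (SE 0.0419) from 83904 reads in co-culture and 59054 reads alone. Acta2 stood at rank 222 of all genes by level and at rank 27 of the 10055 tested genes by log2 change. The gene lies on the minus strand at chr19:34240336-34255585.

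Actg2, the gamma-actin of enteric smooth muscle, was rare. It was at 0.334, 0.263 and 0.183 FPKM in co-culture and at 0.0200, 0.0211 and 0.139 FPKM alone, from 13, 13 and 9 reads in co-culture and from 1, 1 and 7 reads alone. The lowest co-culture library was above the highest alone library, which was alone replicate 3. The ratio of the summed reads per library read was 4.18, and alone replicate 3 held 7 of the 9 reads of its group. Of 1592 words of 50 bases in its annotated transcripts, 0 occurred in those of Acta2, and 7 of the 2146 words of Acta2 (0.326%) occurred in those of the cytoplasmic actin gene Actg1. Actg2 lies at chr6:83512909-83536251.

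Myosin genes of the set behaved unequally. Myl9, the regulatory light chain of smooth muscle myosin, was at 5.72, 6.0 and 5.22 FPKM in co-culture and at 3.52, 3.13 and 2.80 FPKM alone, with no overlap. The means were 5.65 ± 0.393 FPKM in co-culture and 3.15 ± 0.364 FPKM alone (SD, n = 3 each), with a log2 change of 0.68 (SE 0.0728) on 693 reads in co-culture and 416 reads alone. Among the 5 promoters searched, its own had the exact CArG box. Its position is chr2:156775408-156781657, on the plus strand.

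Mylk encodes the kinase that phosphorylates this light chain, and its locus makes a long non-muscle kinase, a shorter smooth muscle kinase and telokin, which a value per gene does not separate. It was at 42.8, 43.0 and 42.8 FPKM in co-culture and at 27.1, 28.8 and 29.6 FPKM alone. The co-culture libraries differed among themselves by less than 1 FPKM. The means of 42.9 ± 0.131 FPKM in co-culture and 28.5 ± 1.24 FPKM alone (SD, n = 3 each) gave a ratio of 1.5 and a log2 change of 0.57 (SE 0.0393). Exons of Mylk (chr16:34745199-35002436) overlap those of the antisense gene E130310I04Rik by 548 bp, and whether the reads were counted by strand is not given in the sources used here.

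Myh11, the smooth muscle myosin heavy chain and the most specific marker of mature smooth muscle, stayed at trace level in both groups. It was at 0.0315, 0.0319 and 0.0714 FPKM in co-culture and at 0.0633, 0.0369 and 0.0521 FPKM alone. The groups overlapped, and the ratio of the sums, 36 reads in co-culture and 43 reads alone, per library read was 0.90. Of its transcript words of 50 bases, 26 (0.34%) also occurred in those of Myh9, the abundant non-muscle heavy chain. Myh11 lies at chr16:14194527-14292188.

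Among the actin-binding proteins Tagln and Lmod1 were expressed and Cnn1 was at trace level. Tagln, which encodes transgelin (SM22 alpha), was at 6.88, 6.09 and 5.19 FPKM in co-culture and at 3.72, 3.61 and 3.81 FPKM alone. Relative to the mean, the co-culture libraries varied more for Tagln than for the other 5 expressed genes (coefficient of variation 14.0%), yet the lowest of them was above every alone library. Means were 6.05 ± 0.847 FPKM in co-culture and 3.72 ± 0.10 FPKM alone (SD, n = 3 each), with a ratio of 1.63 and a log2 change of 0.57 (SE 0.0789) on 993 reads in co-culture and 663 reads alone. Tagln (chr9:45929628-45936058) shares 108 bp of exon with Pcsk7 on the opposite strand.

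Lmod1, leiomodin, which starts new actin filaments in smooth muscle, had the smallest log2 change of the 6. It was at 9.92, 9.50 and 9.28 FPKM in co-culture and at 7.35, 7.36 and 6.67 FPKM alone, again without overlap. The means were 9.57 ± 0.325 FPKM in co-culture and 7.13 ± 0.398 FPKM alone (SD, n = 3 each), a ratio of 1.34 and a log2 change of 0.38 (SE 0.0518). Across all tested genes 1.59% had a log2 change at least that large. The gene lies on the plus strand at chr1:135324813-135368065.

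Cnn1, calponin, which restrains the actin-activated myosin ATPase, was another gene of mature smooth muscle at trace level. It was at 0.160, 0.0502 and 0.114 FPKM in co-culture and at 0.112, 0.0262 and 0.0739 FPKM alone, so the groups overlapped. The 23 reads in co-culture and 17 reads alone gave a ratio of 1.45 per library read. It lies at chr9:22099221-22109221.

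Counted over all 10 genes, 8 had every co-culture library above every alone library, 2 overlapped and 0 were lower without overlap. Of all 21436 genes 14.9% were higher in co-culture without overlap and 13.3% lower, and of the 10055 tested ones 21.3% and 24.8%. The order of the levels changed at 1 place among the 6 expressed genes. In co-culture it was Acta2, Mylk, Carmn and Lmod1, each apart from the next, followed by Tagln and Myl9, which overlapped. Alone it was Acta2, Mylk, then Lmod1 and Carmn, which overlapped, then Tagln and Myl9, each apart from the next. Below them, Actg2 was apart from Cnn1 and Myh11 in co-culture, alone these 3 overlapped, and Myocd was lowest in both groups. Carmn was thus 2.01 times the level of Lmod1 in co-culture, while alone the level of Lmod1 was 1.06 times that of Carmn. Such comparisons between genes rest on the lengths used for FPKM. For Carmn that was 1357 bp, where its GENCODE exons cover 2304 bp, and for Lmod1 3942 bp, where they cover 3948 bp. No library was highest or lowest throughout. Each co-culture replicate was the highest of its group for 2 of the 6, and alone replicates 1, 2 and 3 were the highest for 1, 2 and 3 of them.

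**Figure D2:**
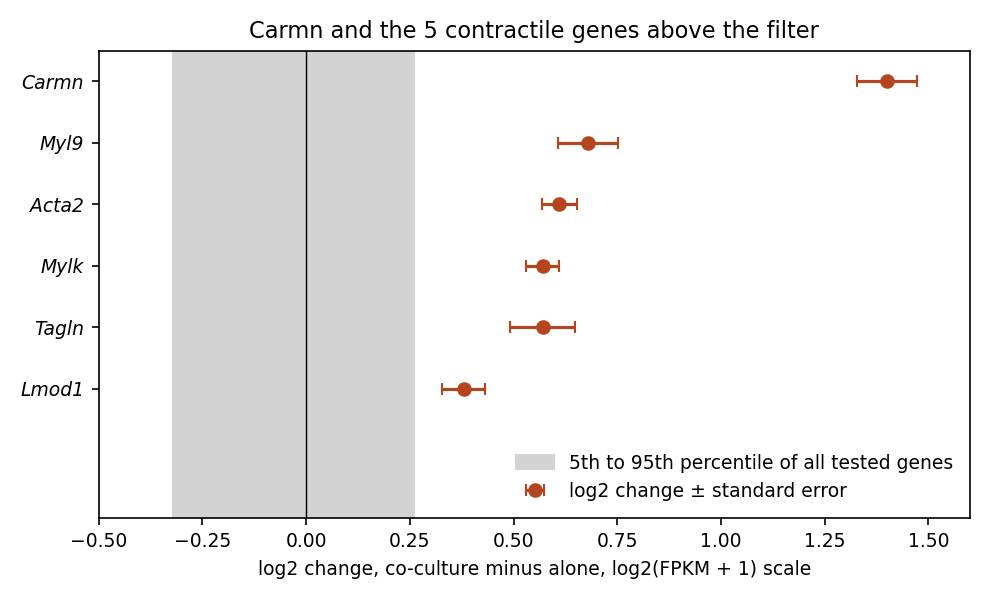
Log2 change, co-culture minus alone, on the log2(FPKM + 1) scale for the 6 genes above the filter (points, bars are standard errors), with the 5th to 95th percentile of all 10055 tested genes in grey (−0.32 to 0.26). Carmn lies at 1.40, the 5 contractile genes lie between 0.38 and 0.68, and all are to the right of the grey band.

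Each contractile protein has relatives in other cells, and the share of the smooth muscle form within its family was computed from FPKM. Acta2 made up 16.3%, 15.8% and 15.9% of actin FPKM in co-culture and 11.6%, 12% and 11.3% alone. The total of the 5 measured actins was 1772 ± 41.0 FPKM in co-culture and 1596 ± 41.5 FPKM alone (SD, n = 3 each). Thus the cytoplasmic actins made up most of the family in both groups. Tagln was 5.17 ± 0.787% of the transgelins in co-culture and 2.62 ± 0.154% alone (SD, n = 3 each), in a family whose total was lower in co-culture at 117 ± 3.59 FPKM than alone at 142 ± 5.20 FPKM. Lmod1 was 28.4 ± 1.17% of the leiomodins and tropomodulins in co-culture and 23.4 ± 0.532% alone. Myl9 was 1.63 ± 0.136% of its 3 regulatory light chains in co-culture and 1.04 ± 0.0635% alone. For these 4 genes the shares did not overlap between the groups. Nor did those of Actg2 (0.0147% in co-culture and 0.00383% alone), which rest on 35 reads in co-culture and 9 alone. The genes were picked with their own difference known, so this lack of overlap is a description and no further evidence. Mylk was 99.5% of the 4 myosin light chain kinases in both groups. Myh11 was 0.0223 ± 0.0118% of the class II heavy chains in co-culture and 0.0279 ± 0.00843% alone, and Cnn1 was 0.0283 ± 0.0143% of the calponins in co-culture and 0.0229 ± 0.0135% alone. The shares of these 3 overlapped.

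**Figure D3:**
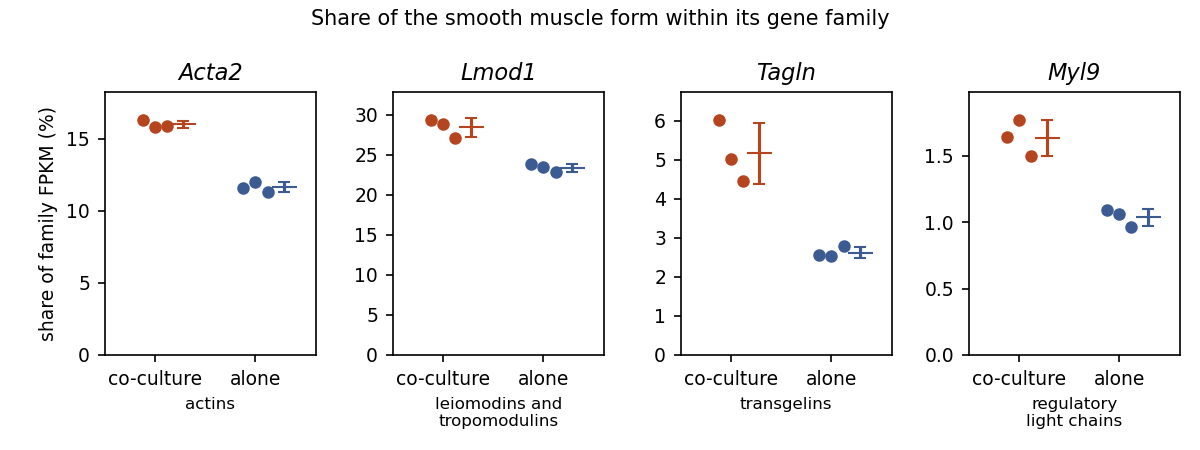
Share of the smooth muscle form in the summed FPKM of its gene family (%, axes start at 0), for each library (points) and as mean ± SD (bars), co-culture left of alone. The shares of Acta2, Lmod1, Tagln and Myl9 are higher in each co-culture library than in each alone library. The genes were picked with their own difference known.

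The relatives themselves did not all move one way. Of 11 paralogs that reached the filter, 7 were called higher (63.6%) and 1 lower (9.09%), beside 13.9% and 17.9% of all tested genes, and the median log2 change was 0.15. Cnn2, a calponin of non-muscle cells, was at 244, 240 and 245 FPKM in co-culture and at 188, 185 and 178 FPKM alone, and rose by a log2 change of 0.40 (SE 0.0346, adjusted p = 1.77e-05, limma). Tagln2, the transgelin of non-muscle cells, was at 107, 115 and 111 FPKM in co-culture and at 142, 139 and 132 FPKM alone, and fell by 0.31 on the log2 scale (SE 0.0402, adjusted p = 0.000313, limma). Tagln and Tagln2 therefore lay in opposite directions. The light chain gene Myl12a (log2 change 0.22, adjusted p = 0.00340, limma) and the calponin gene Cnn3 (0.15, adjusted p = 0.00800, limma) also rose.

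Actb, Myl6, Myl12b and Myh9, which encode cytoplasmic actin, a light chain, another regulatory light chain and the main non-muscle heavy chain, had called increases of 0.12, 0.17, 0.15 and 0.16 on the log2 scale that depended on the libraries included. The call on Myh9 (adjusted p = 0.0151, limma) was lost without co-culture replicate 1 (0.0686). The call on Actb was lost without any library but alone replicate 1 (adjusted p 0.0634 to 0.172, limma). For Myl6 (0.0576 to 0.0815) and Myl12b (0.0830 to 0.0928) removing replicate 2 or 3 of the alone group or replicate 1 or 3 of co-culture ended it. The count of 7 was 3 when co-culture replicate 1 was removed and 4 when replicate 3 of either group or alone replicate 2 was removed. Actg1, Myh10 and Tmod3 were not called, with log2 changes of −0.01, 0.05 and 0.04.

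Beyond the 10 genes and their relatives, 42 other genes of the smooth muscle cytoskeleton and contraction were measured and 32 reached the filter. Of these, 13 were called higher (40.6%) and 1 lower (3.12%), with a median log2 change of 0.17, beside 13.9% and 17.9% and a median of −0.0037 over all tested genes. Like the paralogs above and the lists below, these genes were chosen with earlier results of these data known, and the shares are a description. Filip1l, an actin-associated protein gene, was at 17.7, 17.9 and 17.9 FPKM in co-culture and at 11.5, 12.1 and 11.4 FPKM alone (log2 change 0.57, SE 0.0413, adjusted p = 5.91e-06, limma). Aoc3, an amine oxidase of smooth muscle and adipocytes, was at 14.5, 14.4 and 15.2 FPKM in co-culture and at 9.40, 10.2 and 9.34 FPKM alone (0.56, SE 0.0468, adjusted p = 1.52e-05, limma). Csrp1, a LIM protein bound to actin filaments, averaged 58.6 ± 0.727 FPKM in co-culture and 43.5 ± 2.33 FPKM alone (SD, n = 3 each; 0.42, adjusted p = 5.03e-05, limma). These 3 were named for having some of the smallest p of the list, so a difference beyond the spread of their libraries follows from that choice.

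The gene called lower was Itga5, the fibronectin receptor subunit, at 107, 108 and 110 FPKM in co-culture and at 147, 150 and 143 FPKM alone (log2 change −0.43, SE 0.0336, adjusted p = 9.77e-06, limma). The other 10 called higher, named after their values were seen, were Tpm1, Tpm2, Dstn, Pdlim7, Npnt, Flna, Vcl, Fhl2, Vim and Tln1, with log2 changes of 0.16 to 0.32. They encode tropomyosins, an actin-severing protein, filament crosslinkers, parts of focal adhesions, a matrix protein and vimentin. The call on Flna was lost without co-culture replicate 1 or 2 (adjusted p 0.0666 to 0.0909, limma). Calls on Npnt, Fhl2 and Vim were lost without co-culture replicate 1 or 3 or alone replicate 2, and also without alone replicate 1 for Npnt or alone replicate 3 for Fhl2 and Vim (0.0546 to 0.141), and the count of 13 was 9 at the lowest without 1 library. Smtn, smoothelin, a marker of contractile smooth muscle, was at 6.59 ± 0.357 FPKM in co-culture and 5.90 ± 0.220 FPKM alone (SD, n = 3 each) and was not called (0.14, adjusted p = 0.0762, limma).

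Regulators of the programme moved in both directions. Of 41 tested cofactors and regulators of serum response factor targets, 11 were called higher (26.8%) and 9 lower (22%), beside 13.9% and 17.9% of all tested genes, with a median log2 change of 0.04. Srf, which encodes serum response factor itself, was at 15.3, 15.1 and 14.8 FPKM in co-culture and at 12.6, 12.3 and 11.4 FPKM alone, and rose by 0.29 on the log2 scale (SE 0.0460, adjusted p = 0.000984, limma). Mrtfa, the first of the myocardin-related cofactors, was at 33.6, 31.7 and 33.4 FPKM in co-culture and at 27.4, 28.3 and 27.7 FPKM alone (0.23, SE 0.0379, adjusted p = 0.00116, limma). Mrtfb, the second, was at 2.32, 2.44 and 2.30 FPKM in co-culture and at 1.65, 1.92 and 1.95 FPKM alone (0.24, adjusted p = 0.0154, limma), a call lost without co-culture replicate 2 (0.0512) and when no gene was filtered out (0.0691). Both cofactors were thus far above myocardin in these cells, in both groups.

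Krüppel-like factors gave the largest changes among the regulators. Klf4, which represses smooth muscle genes in smooth muscle cells, was at 3.92, 4.14 and 3.82 FPKM in co-culture and at 7.69, 7.41 and 7.19 FPKM alone, and fell by 0.77 on the log2 scale (SE 0.0515, adjusted p = 3.69e-06, limma). Klf2, a vascular factor, was at 3.07, 3.05 and 3.69 FPKM in co-culture and at 1.38, 1.17 and 1.16 FPKM alone, and rose by 0.93 (SE 0.0747, adjusted p = 1.23e-05, limma). The Notch ligand gene Jag1 was at 3.28, 3.56 and 3.20 FPKM in co-culture and at 5.21, 5.85 and 5.82 FPKM alone, and fell by 0.61 (SE 0.0602, adjusted p = 5.03e-05, limma). The groups did not overlap for these 3 genes, which had the smallest p of the list. Of all tested genes 21.3% were higher and 24.8% lower without overlap. Higher calls not described above, named after their values were seen, were Tead3, Foxo4, Wwtr1, Tgfbr2, Pdgfra, Pdgfrb and Ybx1 (log2 changes of 0.11 to 0.22). The lower ones were Tead4, Klf5, Smad7, Zeb2, Msx1, Tgfb1 and Tgfbr1 (−0.40 to −0.19). Calls on Foxo4, Smad7, Zeb2, Wwtr1, Tgfbr2, Pdgfrb and Ybx1 were lost without some 1 library (adjusted p 0.0505 to 0.154, limma). The 11 higher calls on this list were 6 without co-culture replicate 3, and the 9 lower calls were 4 when no gene was filtered out.

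Genes that set the phosphorylation of myosin light chain and the assembly of actin were called in both directions. Of 33 tested, 2 were called higher (6.06%) and 8 lower (24.2%), beside 13.9% and 17.9% of all tested genes, and the median log2 change was −0.02. Rgs2, which shortens signalling of contractile receptors through Gq, was at 123, 112 and 131 FPKM in co-culture and at 211, 186 and 193 FPKM alone, and fell by 0.69 on the log2 scale (SE 0.0610, adjusted p = 2.26e-05, limma). Rnd1, an antagonist of RhoA, fell by 0.47 (10.1 ± 0.943 FPKM in co-culture and 14.3 ± 0.461 FPKM alone, SD, n = 3 each; adjusted p = 0.000318, limma). Ppp1r14b, an inhibitor of the phosphatase that acts on myosin, fell by 0.37 (37.6 ± 3.04 FPKM in co-culture and 48.9 ± 1.39 FPKM alone; adjusted p = 0.000602, limma). Rock1, a kinase activated by RhoA, fell by 0.30 (8.36 ± 0.402 FPKM in co-culture and 10.5 ± 0.466 FPKM alone; adjusted p = 0.00161, limma). By their known roles, Rgs2 and Rnd1 oppose contraction and Ppp1r14b and Rock1 favour it. The 2 called higher, Ppp1r12b and Limk2, were named after their values were seen. The call on Limk2 was lost without co-culture replicate 1 (adjusted p = 0.0506, limma), and that on Ppp1r12b without replicate 1 or 3 of either group (0.0632 to 0.0981). No gene of the list was called higher without co-culture replicate 1, with no filter, with a filter at 5 FPKM or at a threshold of 0.01.

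**Figure D4:**
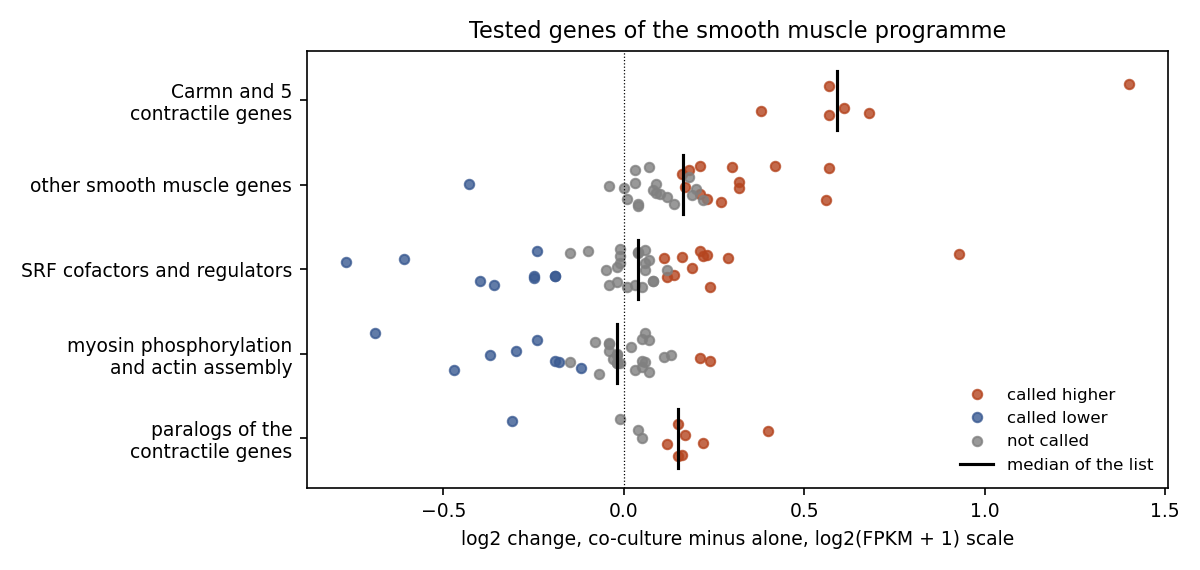
Log2 change, co-culture minus alone, of every tested gene in 5 groups of the smooth muscle programme (points, coloured by call at an adjusted p below 0.05, limma), with the median of each group (black line). Medians are 0.59 for Carmn and 5 contractile genes, 0.17 for other smooth muscle genes, 0.04 for regulators, −0.02 for myosin phosphorylation and actin assembly and 0.15 for paralogs. All 5 groups were chosen with earlier results of these data known.

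Defining markers of smooth muscle as a cell type were mostly near 0. Of 9 such markers 7 were measured, and 4 of them (Myh11, Cnn1, Myocd and Synpo2) had a mean below 1 FPKM. The summed level of the 7 was 17.2 to 18.1 FPKM in co-culture and 14.0 to 14.5 FPKM alone, mostly from Lmod1 and Smtn, and Myh11, Cnn1, Myocd and Lmod1 are shared with the set of 10. Pericyte markers summed to 25.5 to 25.9 FPKM in co-culture and 20.6 to 23.3 FPKM alone over 8 measured of 11. They were led by Anpep (log2 change 0.28, adjusted p = 0.000956, limma) and Notch3 (0.05), while Cspg4 had 3 reads or fewer and 6 of the 8 were below 1 FPKM. All 7 measured endothelial markers were below 1 FPKM, led by Emcn and Pecam1, with sums of 0.171 to 0.341 FPKM in co-culture and 0.202 to 0.313 FPKM alone. Markers of activated fibroblasts summed to 1607 to 1655 FPKM in co-culture and 1552 to 1738 FPKM alone over 8 measured of 9. Fn1, which encodes fibronectin, led that list with a log2 change of −0.13 (adjusted p = 0.0765, limma, and 0.00246 without alone replicate 1). Of its 5 tested genes 2 were called higher (40%) and 0 lower, beside 13.9% and 17.9% of all tested genes. The 2 were Acta2 and Tagln, both from the set of 10.

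Other lineages were checked in the same way. Skeletal muscle markers summed to 1.5 to 2.21 FPKM in co-culture and 1.18 to 1.6 FPKM alone over 8 measured of 12, led by Tnnt3 and Tnni2. Tnnt3 was not called (log2 change 0.20, adjusted p = 0.248, limma) but was called higher without alone replicate 1 (0.00731). Heart muscle markers summed to 0.148 to 0.236 FPKM in co-culture and 0.0675 to 0.118 FPKM alone over 5 of 11, led by Nppb and Nkx2-5. Adipocyte markers summed to 242 to 253 FPKM in co-culture and 271 to 291 FPKM alone over 10 of 11, nearly all of it Lpl (190 FPKM in co-culture and 226 FPKM alone) and Fabp4 (58.2 FPKM in co-culture and 53.4 FPKM alone), and Adipoq, Cfd, Cidec and Retn had 3 reads or fewer. Of 2 tested, 0 were called higher and 1 lower (50%), beside 13.9% and 17.9% of all tested genes. Lpl was the gene called lower (log2 change −0.25, adjusted p = 0.00135, limma). Fabp4 was not called (0.12, adjusted p = 0.0508, limma) but was called higher without alone replicate 1 (0.0152). Blood cell markers summed to 7.60 to 25.2 FPKM in co-culture and 23.9 to 41.8 FPKM alone over 12 genes, led by S100a8 and S100a9. On that list 5 genes were tested, and 0 were called higher and 2 lower (40%), beside 13.9% and 17.9% of all tested genes. The 2 were the globin genes Hba-a1 and Hbb-bs, named after their values were seen. S100a8 and S100a9 were called lower without co-culture replicate 3 (adjusted p = 0.00186 and 0.00802, limma), and the call on Hba-a1 was lost without co-culture replicate 2 or any alone library (0.0611 to 0.109). The part of these other cell types in the differences of Carmn and the contractile genes was not tested.

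The pattern of Carmn over the 6 libraries was compared with that of the other tested genes, and predicted and clone-based symbols were left out when genes were named. On log2(FPKM + 1) the 5 genes with the highest Pearson r with Carmn were Rapgef3 (0.9989), Mylk (0.9982), Ssbp1 (0.9966), Zfp970 (0.9952) and Pcx (0.9948), and 395 tested genes (3.93%) had an r above 0.95. These r describe 6 points that fall into 2 groups of 3 libraries. Rapgef3 was at 1.63, 1.6 and 1.65 FPKM in co-culture and at 1.22, 1.25 and 1.29 FPKM alone. It ranked the 3 libraries of each group in the same order as Carmn did. Acta2 had an r of 0.97, and Tagln, Myl9 and Lmod1 each had 0.93.

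The 6 expressed genes were also compared without the library that stood apart. Without alone replicate 1 the log2 changes were 1.32 for Carmn, 0.62 for Acta2, 0.57 for Tagln, 0.74 for Myl9, 0.54 for Mylk and 0.40 for Lmod1.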

How the data were processed

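Total RNA was sequenced in 3 co-culture and 3 alone libraries. Per the labels, TRIzol was used for extraction and the VAHTS Universal V6 kit for library preparation. Reads were processed with HISAT2, HTSeq and fastp on mm10, per the submitters' processing notes, which give no versions. The table deposited by the authors holds FPKM per gene and library. 0 value columns were left without a sample.

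Reads were recovered from the FPKM values, which are whole multiples of the value of 1 read (100% of genes, tolerance 0.0001 of a read). The absolute scale came from mitochondrial COX1, which is 1545 bp long. The test was limma 3.58.1 in R 4.3.3 (eBayes with a trend) on log2(FPKM + 1) over the 10055 genes that averaged 1 FPKM or more, 11381 genes being left out, with Benjamini-Hochberg adjustment and a threshold of 0.05. The fit was tested on simulated data.

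The 10 genes, the 4 pathway lists, the 9 marker lists and the tests were chosen with earlier results of these data known. Named besides the 10 were up to 4 called genes per pathway list by smallest p, Srf, Mrtfa, Mrtfb and Klf4, paralogs with a mean of at least 1 FPKM, the 2 highest markers per list, genes within 250 kb of Carmn, and the 5 genes most correlated with Carmn. Predicted and clone-based symbols were left out of these last 5. Coordinates of the 10 genes are those of RefSeq GRCm38.p6, counted from 1, and shared exons and transcript words were taken from the GENCODE annotation of the same build. Alternatives were pseudocounts of 0.1 and 0.01, no filter or a filter at 5 FPKM, TPM and median-ratio scaling, eBayes without a trend, the replicate number as a block, limma-voom on the recovered reads, each library left out, and a threshold of 0.01.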

Additional observations from a re-analysis of the deposited data

How the results depend on the processing

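Over the alternatives in which they were tested (Tagln and Myl9 did not reach a filter of 5 FPKM), the log2 changes of the 6 expressed genes, picked on this contrast, ranged over 1.32 to 1.52 for Carmn, 0.57 to 0.64 for Acta2, 0.49 to 0.69 for Tagln, 0.62 to 0.84 for Myl9, 0.54 to 0.60 for Mylk and 0.34 to 0.43 for Lmod1. The 33 higher genes of the 4 pathway lists became 21 with no filter and 17 at a threshold of 0.01, and 20 to 31 without 1 library, with 20 without co-culture replicate 1. The 19 lower ones were 15 to 20 without 1 library, 13 with no filter and 14 at a threshold of 0.01. Over all genes the 1402 higher and 1799 lower became 635 and 1073 at 0.01, and 925 to 1419 and 1374 to 1753 without 1 library, with 925 without co-culture replicate 3. Genes among the 5 promoters with a CArG box were 1 with an exact match and 2 with either mismatch. With the replicate block 1258 genes were higher and 1640 lower, and 29 and 19 of the pathway lists. Same-numbered libraries did not deviate together (correlations −0.04, 0.11 and −0.08). Whether equal numbers mark libraries handled together is not in the labels, and these correlations cannot tell. TPM and median-ratio scaling moved the median log2 change of all genes by at most 0.0083. Depth limits Myocd, Actg2, Myh11 and Cnn1, which had 43 reads or fewer per group. No called result among these changed direction. Limma-voom on the recovered reads called 1492 genes higher and 1911 lower.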
